A study of Bos indicus and Bos taurus with 17 samples.

Results

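Milk cells of Jersey and Kashmiri cattle were compared at day 90 in milk (D90), the mid-lactation sampling of this study of both breeds at D15, D90 and D250. A gene entered the comparison when it carried a name, when its FPKM (fragments scaled by transcript length and by the mapped reads of the library) was at least 1 in either breed, and when neither value was 0, since a 0 gives no ratio. These conditions left 11145 genes of the 21631 distinct names. The labels name 2 Jersey samples at D90, one cow in the second lactation and one in the third, and 3 Kashmiri samples, all in the second lactation, and all 5 were collected in July. Kashmiri is a local cattle breed of the Kashmir valley, and Jersey is a dairy breed kept on the same farm. The series covers Bos indicus and Bos taurus, and reads of both breeds were aligned to the same bovine assembly. Whether this alignment affected the breeds differently was not tested. In every group the cells came from fresh milk and were captured on magnetic beads that carried an antibody to keratin 18 (KRT18), and the labels call them milk epithelial cells. The study's methods describe one more Jersey cow and place all cows in the third lactation, so the number of cows behind the Jersey value and their lactation are unsettled. Each breed had 1 pooled FPKM value per day, so no value here has an error and no difference was tested, and a single cow could carry a group value. The reads behind each FPKM are unknown. Some entries join the names of neighbouring genes, and their value belongs to all of them, as for KRT8, IL1R2, ICAM1, DGAT2, ACLY, RPL26L1, ITGA2B and PLK1.

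Milk carries cells shed from the gland together with white cells that crossed into the alveoli. Secretory epithelial cells make caseins, lactose and fat under the control of prolactin. Neutrophils enter milk in numbers when the gland is inflamed and kill microbes with oxidants and granule proteins. Macrophages clear debris and take up fat, and lymphocytes, most of them T cells, patrol the epithelium. A bulk RNA profile of captured cells adds up all of these, so that fewer cells of a type and less RNA per cell cannot be told apart.

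Genes of neutrophils and macrophages were higher in Jersey cattle, and genes of T cells, B cells and the epithelium were higher in Kashmiri cattle. Throughout, FPKM values are given for Kashmiri against Jersey cattle, in that order, and the ratio is the log2 of Jersey over Kashmiri, so that a negative ratio means a higher value in Kashmiri cattle. Over all 11145 genes the median ratio was -0.04. By the limit of 4-fold, 1062 genes (9.53%) were higher and 1123 (10.1%) lower in Jersey cattle, and 6561 (58.9%) lay within 2-fold. A ratio above 0 was found in 48.5% of genes. The balance of higher and lower genes depended on the scaling. The FPKM of all entries summed to 827916 in Kashmiri and 645410 in Jersey cattle. Genes listed at 0 add nothing to these sums, and some of these 0 values may be failed estimates. Rescaling to this sum without the milk protein genes added 0.35 to every ratio and gave 1360 genes higher and 875 lower, or 60.9% higher in place of 48.6%. Rescaling to the upper quartile of the genes compared subtracted 0.17.

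The label of epithelial cells was checked against marker genes. KRT18, the antigen of the capture, had 9.13 FPKM in Kashmiri and 1.59 FPKM in Jersey cattle, and its partner KRT8 had 26.2 against 6.07 FPKM. Markers shared by all white cells stood above them in both breeds, with 166 against 119.6 FPKM for PTPRC (CD45), 499.6 against 398 FPKM for CORO1A and 1193 against 909 FPKM for LAPTM5. Some other epithelial markers stood above PTPRC in Kashmiri cattle, such as KRT19 (295 FPKM) and ELF5 (206 FPKM), but none did in Jersey cattle. RNA of both white cells and epithelial cells was thus present, and the share of each kind of cell is unknown. The study also checked purity by qPCR in D90 samples, which was not used here. Against milk cells before capture, it reported higher KRT18 and CSN2 and lower LSP1, HBA and CD18 in the captured cells. From this the study proposes that contamination by other cell types was minimal. Summed over each list, the FPKM of the epithelial markers was 908 against 140.4, of the T and NK cell markers 2041 against 219, of the neutrophil markers 502 against 5838, and of the macrophage and monocyte markers 538 against 2437. Pan-leukocyte markers summed to 3812 against 7948 FPKM, with TYROBP alone at 3060 FPKM in Jersey cattle. Of the 11 compared, 6 were higher and 5 lower in Jersey cattle (median ratio 0.23), PTPRC, CORO1A and LAPTM5 among the lower. This sum is therefore no measure of all white cells. Of the markers listed, 2 of 14 neutrophil markers (CD177 and PGLYRP1), 1 of 13 macrophage markers (MARCO), 1 of 16 T and NK cell markers (GZMB), 1 of 11 B cell markers (PAX5) and 2 of 20 epithelial markers (GRHL2 and ESRP2) were below 1 FPKM in both breeds. Only 11 of the 14 neutrophil, 10 of the 11 B cell and 11 of the 12 pan-leukocyte markers were found by name. What these differences in cell type contribute to the other genes described here was not tested.

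**Figure D1:**
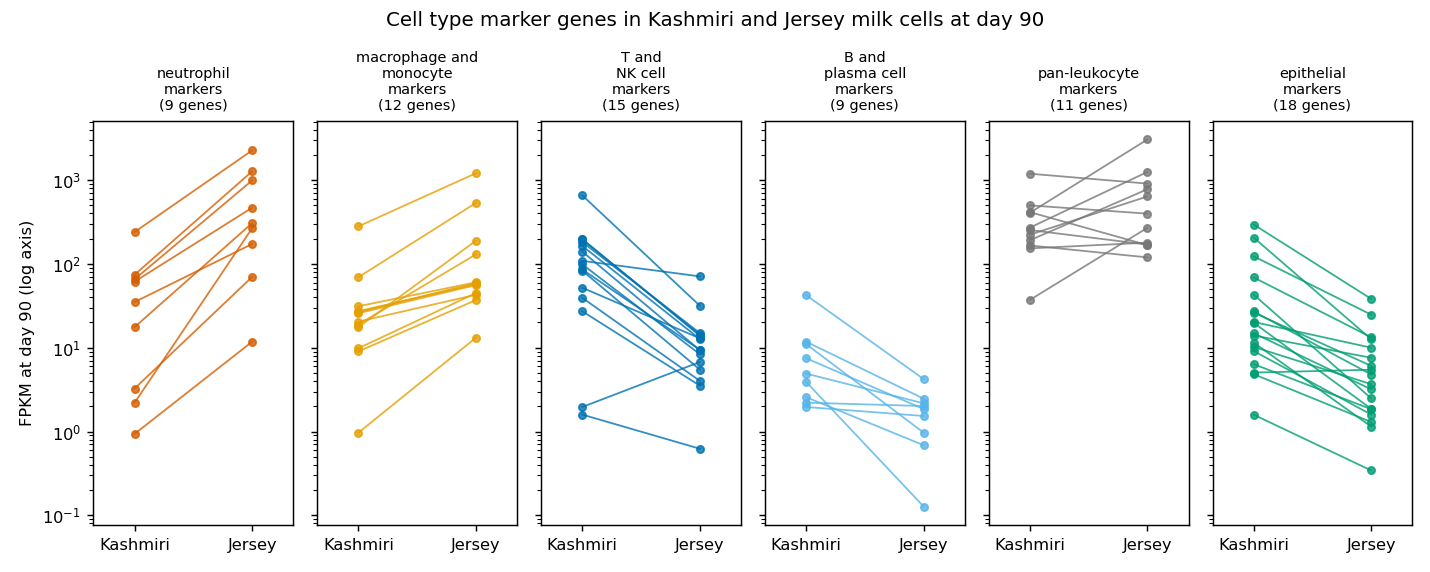
FPKM (log axis) of the cell type marker genes at D90, with each line joining the Kashmiri and the Jersey value of 1 gene. The 9 neutrophil and 12 macrophage and monocyte markers all run upwards to Jersey cattle, 14 of 15 T and NK cell, 9 of 9 B and plasma cell and 17 of 18 epithelial markers run downwards, and the 11 pan-leukocyte markers run both ways.

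Of the 18 epithelial markers compared, 17 were lower in Jersey cattle and 12 of them at least 4-fold, with a median ratio of -2.27. KRT19, a keratin of simple epithelia, had 295 against 38.2 FPKM (ratio -2.95). ELF5, the transcription factor that drives alveolar differentiation, had 206 against 12.6 FPKM (-4.03), and MUC1, the membrane mucin of the apical surface, 43.0 against 2.48 FPKM (-4.12). These last 2 genes lay at the low end of the list. SPINT2, an inhibitor of membrane serine proteases, was near its median, with 123 against 24.8 FPKM (-2.31). The highest member was CDH1 (E-cadherin), with 5.05 against 5.46 FPKM (0.11), and its ratio fell below 0 under upper quartile scaling.

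Among white cells, the lymphocyte genes separated the breeds in the Kashmiri direction. Of 15 T and NK cell markers compared, 14 were lower in Jersey cattle and 12 at least 4-fold, with a median ratio of -3.56. CD3E, a chain of the T cell receptor complex, had 659 against 31.7 FPKM (-4.38), the lowest ratio of the list. The other chains CD3D, CD3G and CD247 had ratios of -3.84, -3.69 and -3.78. The co-receptors of helper and cytotoxic cells were both lower in Jersey cattle, CD4 with 98.9 against 8.37 FPKM (-3.56) and CD8A with 27.2 against 3.53 FPKM (-2.95). The receptor kinases LCK and ZAP70 had ratios of -3.19 and -3.92. The smallest differences among the members lower in Jersey cattle included those of PRF1 and NKG7. PRF1 (perforin) had 52.0 against 12.9 FPKM (-2.01) and NKG7, shared by NK and cytotoxic T cells, 109 against 71.0 FPKM (-0.62). NCR1, an NK cell receptor at low level, was the single member higher in Jersey cattle, with 1.96 against 6.76 FPKM (1.78), named after its value was seen.

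A longer list of T cell genes was written after the values had been seen, so that its counts describe the choice as well as the cells. Of its 45 genes, 41 were lower in Jersey cattle and 38 at least 4-fold, with a median ratio of -3.55. Constant chains of both T cell receptor types were among them, TRAC of the alpha-beta receptor with 419 against 30.2 FPKM (-3.79) and TRDC of the gamma-delta receptor with 378 against 15.3 FPKM (-4.63). CTSW, a cathepsin of cytotoxic lymphocytes, had 954 against 13.7 FPKM (-6.13). TCF7 and LEF1, transcription factors of naive and memory-forming T cells, had 50.2 against 1.30 FPKM (-5.27) and 36.8 against 2.58 FPKM (-3.84). The costimulatory receptor CD28 had 24.9 against 1.36 FPKM (-4.20). A few genes of this list differed little or lay on the other side. IL7R (58.8 against 57.2 FPKM) and CCR7 (102 against 114 FPKM) were near equal, and CD69, an early activation antigen carried by several white cell types, was higher in Jersey cattle, with 59.5 against 326 FPKM (2.46).

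Of 9 B and plasma cell markers, 9 were lower in Jersey cattle and 5 at least 4-fold, with a median ratio of -2.01. CD79A, a signalling chain of the B cell receptor, had 42.5 against 4.22 FPKM (-3.33), CD79B 11.8 against 2.46 FPKM (-2.26), and JCHAIN, which joins the subunits of secreted IgA and IgM, 11.1 against 0.969 FPKM (-3.51). FCRLA, the member nearest to 0 (-0.13), lay above 0 when FPKM was rescaled to the sum.

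Neutrophil and macrophage genes separated the breeds in the other direction. All 9 neutrophil markers compared were at least 4-fold higher in Jersey cattle, with a median ratio of 3.92. The calcium-binding alarmins S100A8, S100A9 and S100A12, which fill the neutrophil cytosol, had 74.3 against 1276, 65.7 against 994 and 240.4 against 2267 FPKM. TREM1, an amplifier of inflammation on phagocytes, had 17.6 against 307 FPKM (4.12), and MMP9, a granule collagenase, 3.26 against 70.1 FPKM (4.43). MCEMP1, a membrane protein of myeloid and mast cells, had the highest ratio, with 2.21 against 267 FPKM (6.92).

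All 12 macrophage and monocyte markers were higher in Jersey cattle and 7 at least 4-fold, with a median ratio of 2.07. CD14, the co-receptor for lipopolysaccharide, had 69.5 against 536 FPKM (2.95), CSF1R, the receptor for the macrophage growth factor, 18.9 against 130.2 FPKM (2.78), and CD68, a lysosomal membrane protein, 281 against 1211 FPKM (2.11). The complement subunits C1QA, C1QB and C1QC, products of tissue macrophages, differed less, with ratios of 0.95, 1.12 and 1.06, as did VSIG4 (1.06) and the scavenger receptor MSR1 (1.15).

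The pan-leukocyte markers lay between these lists, with 6 higher and 5 lower in Jersey cattle and a median ratio of 0.23. ITGB2, the common integrin chain, was close (153 against 179 FPKM, 0.23), and ARHGDIB had the lowest ratio (-1.31). Members at least 4-fold higher in Jersey cattle included TYROBP, an adaptor of activating receptors (407 against 3060.1 FPKM, 2.91). SPI1 (PU.1), a myeloid transcription factor, was another (37.2 against 270.0 FPKM, 2.86). The others were LCP1 (L-plastin, 2.03) and FCER1G, in a joined entry (2.21).

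The oxidant enzymes and receptors of phagocytes were mostly higher in Jersey cattle. Of 6 NADPH oxidase genes, 5 were higher in Jersey cattle and 4 at least 4-fold, with a median of 2.72. CYBB, the catalytic subunit, had 7.41 against 113 FPKM (3.92) and the cytosolic subunit NCF1 27.2 against 971 FPKM (5.16), while RAC2, used by lymphocytes too, had 301 against 245 FPKM (-0.29) and turned higher when rescaled to the sum. All 10 genes of Fc receptors and immune adaptors were higher and 7 at least 4-fold (median 2.79), among them the myeloid kinase FGR with 14.1 against 418 FPKM (4.89). Among leukocyte integrins and adhesion genes, 8 of 10 were higher and 3 at least 4-fold (median 1.27). ITGAM (CD11b) of myeloid cells had 12.7 against 102 FPKM (3.01), and ITGAL (CD11a), abundant on lymphocytes, 32.9 against 16.0 FPKM (-1.04). ICAM1, the ligand for both integrins, shares its entry with other names, which had 10.6 against 913 FPKM (6.42).

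A second list written after the values had been seen, of 31 phagocyte receptors, sensors and enzymes, was higher in Jersey cattle in all 31 genes and at least 4-fold in 28, with a median of 4.52. GPR84, a receptor for medium-chain fatty acids that phagocytes induce, had 3.97 against 644 FPKM (7.34). C5AR1, the receptor for the complement fragment C5a, had 14.3 against 327 FPKM (4.52). NOS2 (inducible nitric oxide synthase) had 1.79 against 171 FPKM (6.58), and ACOD1, which makes itaconate, 4.37 against 323 FPKM (6.21). The inflammasome sensors NAIP and MEFV (pyrin) had 2.33 against 180.4 and 13.3 against 1192 FPKM, against which their adaptor PYCARD differed little (32.6 against 63.6 FPKM, 0.97). CXCR4, the receptor for CXCL12, was high in both breeds, with 925 against 1297 FPKM (0.49).

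Sensors and messengers of inflammation were higher in Jersey cattle. Of 15 Toll-like receptor and adaptor genes, 14 were higher and 8 at least 4-fold, with a median of 2.13. TLR2, which binds bacterial lipoproteins, had 9.04 against 177 FPKM (4.29), and TLR4, which binds lipopolysaccharide with LY96, 9.45 against 143 FPKM (3.92). The shared adaptor MYD88 sat at the list median, with 49.0 against 214 FPKM (2.13), and the kinase IRAK1 differed little (19.9 against 23.4 FPKM, 0.24). Of 15 genes of the IL1 and TNF list, 14 were higher and 11 at least 4-fold, with a median of 4.22. IL1B had 16.1 against 1905 FPKM (6.89) and IL1A 1.26 against 137 FPKM (6.76). Their decoy receptor IL1R2 was also higher (27.7 against 523 FPKM, 4.24), as was NLRP3, the sensor that activates IL1B processing (2.72 against 92.7 FPKM, 5.09). TNF, at low level in both breeds, was the single member lower in Jersey cattle (4.12 against 0.957 FPKM, -2.10), named after its value was seen.

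Chemokine genes lay at both ends. Among CC chemokines, 10 of 11 were higher and 9 at least 4-fold, with a median of 4.003. CCL14 had 278 against 7509 FPKM (4.75), CCL2, an attractant of monocytes, 82.6 against 1550.5 FPKM (4.23), and CCL20 0.237 against 42.7 FPKM (7.495), where the small Kashmiri value makes the ratio uncertain. CCL5, made by T cells among others, was high and near equal, with 1649 against 1710.5 FPKM (0.053), and its ratio was below 0 under upper quartile scaling. The single CC chemokine lower in Jersey cattle was CCL28, a product of glandular epithelium (4.98 against 0.638 FPKM, -2.96), named after its value was seen. CXCL8 (listed as IL-8), the main attractant of neutrophils, had 36.1 against 2108 FPKM (5.87), and CXCL16 79.5 against 648 FPKM (3.03). In contrast, CXCL9 and the entry that joins CXCL10 and CXCL11, ligands that interferon gamma induces for CXCR3, a chemokine receptor of T cells, had 11.8 against 3.80 and 30.8 against 7.10 FPKM (-1.63 and -2.12). CXCR3 itself had 14.7 against 2.09 FPKM (-2.81). CXCL12, an attractant from stroma, had 2.92 against 0.0202 FPKM, with the Jersey value too low for a firm ratio. The median of the 5 CXC entries, -1.63, changed sign under several alternatives and describes no common direction.

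By the medians of their lists, antigen presentation differed less than the interferon response. Among 13 genes of MHC class I presentation, 9 were higher and 4 lower in Jersey cattle, none of them 4-fold, with a median of 0.26. B2M, the invariant light chain, had 7468 against 10721 FPKM (0.52), and the immunoproteasome subunits PSMB8, PSMB9 and PSMB10 had ratios of -0.60, -0.45 and -0.67. For MHC class II, 4 of 5 genes were higher (median 1.15), and CIITA, near 0 at -0.071, turned higher under the sum. Among the higher were the invariant chain CD74, with 1533 against 3391 FPKM (1.15), and BOLA-DRA, with 342 against 1226 FPKM (1.84). LA-DQB, a class II gene in no list, had 66.1 against 657 FPKM (3.31) and was named after its value was seen. All 14 entries compared from the interferon response list were higher and 8 at least 4-fold, with a median of 2.30. ISG15 had 248 against 1373 FPKM (2.47) and the transcription factor IRF1 77.2 against 387 FPKM (2.33). IFI6, the member nearest to 0, had 85.9 against 95.0 FPKM (0.14) and fell below 0 under upper quartile scaling. OASL and LY6E, which interferon also induces, are in no list and were lower in Jersey cattle. They had 57.7 against 2.86 and 361 against 26.2 FPKM (-4.34 and -3.78), and were named after their values were seen.

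Transcription factors of the immediate response were also higher in Jersey cattle. All 15 genes of the NF-kB list were higher and 8 at least 4-fold, with a median of 2.26. NFKBIA, the inhibitor that NF-kB itself induces, had 119.9 against 4932 FPKM (5.36), NFKB2 66.7 against 524 FPKM (2.97), and the subunit RELA 36.4 against 67.7 FPKM (0.89). All 12 genes of the AP-1, CREB and C/EBP list were higher and 4 at least 4-fold (median 1.58), such as JUNB with 108 against 1195 FPKM (3.47) and FOS with 69.5 against 542 FPKM (2.96). These counts stood beside the neutrophil and macrophage markers, which were higher in the same samples, and the part of these markers in the counts was not tested.

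**Figure D2:**
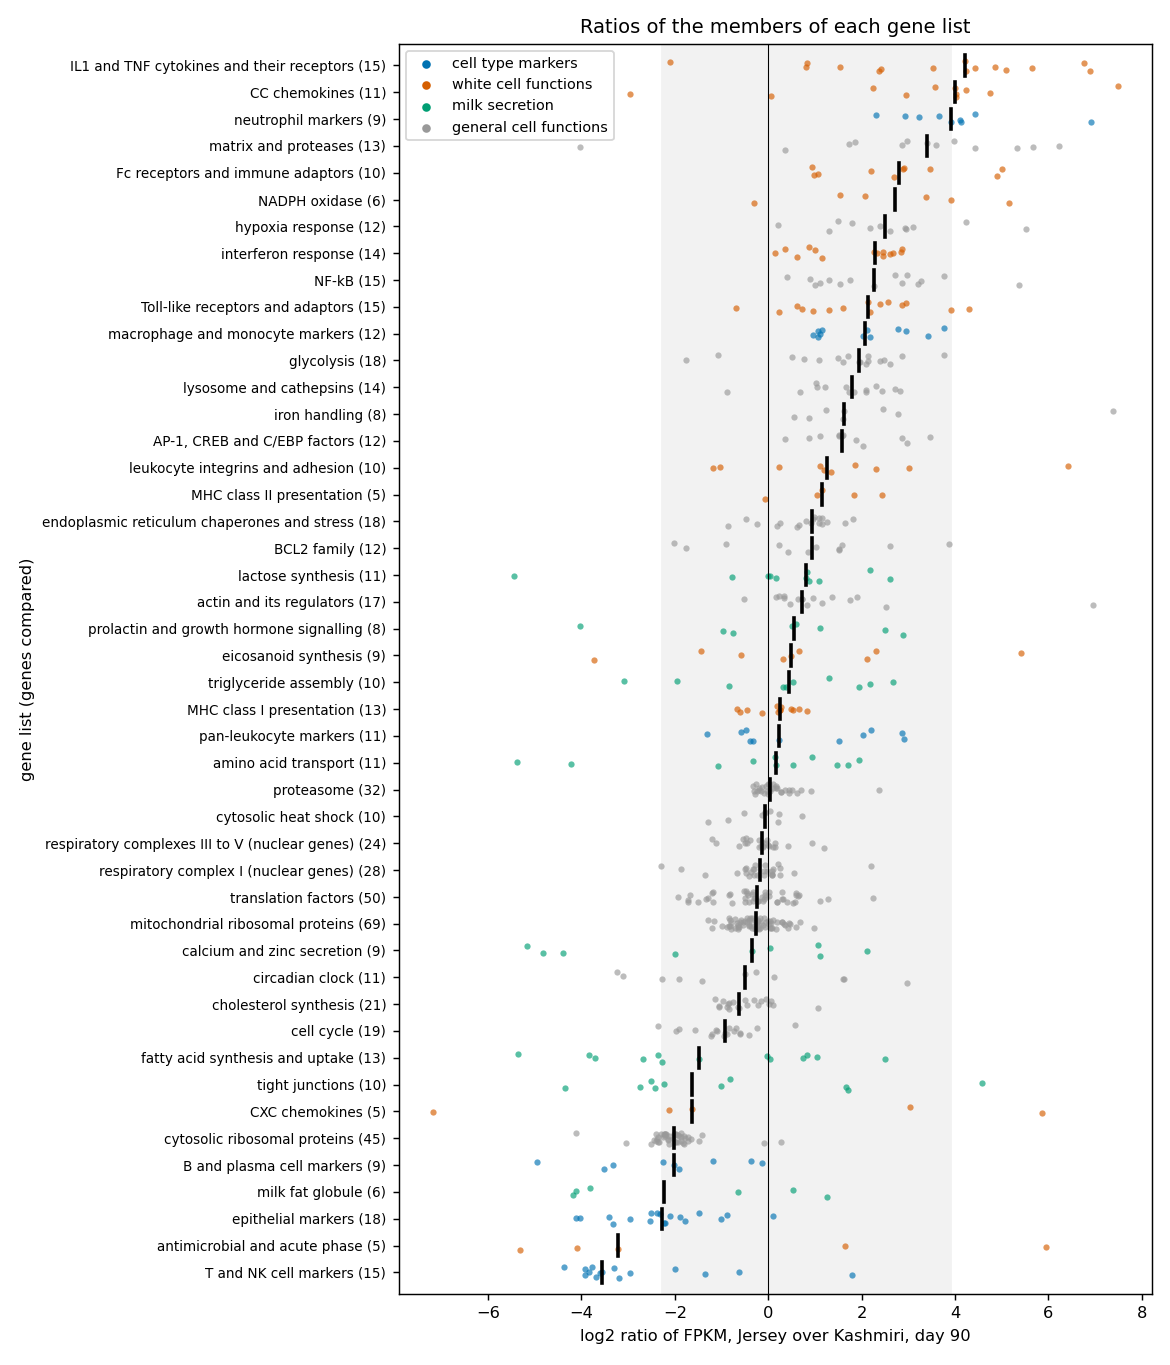
Log2 ratio of FPKM (Jersey over Kashmiri, D90) of each gene compared, with 1 row per gene list of at least 5 genes (without the lists written after the values were seen), ordered by the median (black bar), with colours for the kind of list and a grey band from the median of the epithelial markers to that of the neutrophil markers. The median ran from -3.56 for T and NK cell markers to 4.22 for the IL1 and TNF list, and most genes of the proteasome, respiratory and mitochondrial ribosomal lists lay close to 0.

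Genes of milk secretion lay on both sides of 0. FABP3 and FASN were more than 4-fold lower in Jersey cattle, and B4GALT1 and LPL were near equal. LALBA (alpha-lactalbumin), the regulatory subunit of lactose synthase and a product of secretory cells, had 12933 against 297 FPKM (-5.44). This entry was listed at 0 in both breeds at D15, as were 3 other milk protein genes, so its D90 values may also be partial estimates and the ratio is uncertain. The other subunit, B4GALT1, which most cells express, had 52.0 against 53.5 FPKM (0.04). In the lactose synthesis list, 8 of 11 genes were higher (median 0.82), and 6 of 11 under upper quartile scaling, with the glucose transporter SLC2A1 (17.9 against 81.7 FPKM, 2.19) and hexokinase HK2 (5.36 against 32.6 FPKM, 2.60) the highest. CSN1S1, CSN2, CSN3 and PAEP, which encode the caseins and beta-lactoglobulin, were listed at 0 in Kashmiri cattle and had 949, 1068, 653 and 2076 FPKM in Jersey cattle. Since GAPDH, which every cell uses, was listed at 0 and 0.0328 FPKM, such a 0 can be a failed estimate. Caseins are among the most abundant transcripts of secretory cells, so the Jersey values of these entries may be partial too, and no level or direction was read from either.

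Of 13 genes of fatty acid synthesis and uptake, 8 were lower and 6 of them at least 4-fold (median -1.49), and 5 were higher, with LPL and ACLY changing side under other scalings. FASN (fatty acid synthase) had 142 against 9.92 FPKM (-3.84), ACACA, the step before it, 11.5 against 2.22 FPKM (-2.37), ACSS2, which activates acetate, 105 against 16.5 FPKM (-2.67), and FABP3, the fatty acid carrier of the gland, 2159 against 164 FPKM (-3.72). LPL (lipoprotein lipase, 43.8 against 43.0 FPKM) and ACLY (17.3 against 17.9 FPKM) were close to equal, and FABP4, a carrier of fat cells and macrophages, was higher, with 154 against 317 FPKM (1.04). Of 6 genes of the milk fat globule, 4 were lower and 3 of them at least 4-fold (median -2.23): MFGE8 (lactadherin, 339 against 24.1 FPKM, -3.81), the transporter ABCG2 (33.7 against 1.86 FPKM, -4.18) and MUC1. XDH, which anchors the globule coat, differed less (323 against 205 FPKM, -0.65), and PLIN2, the coat of lipid droplets in many cells, was higher (225 against 535 FPKM, 1.25). In triglyceride assembly, 7 of 10 genes were higher (median 0.45), with DGAT2 at 10.2 against 46.1 FPKM (2.18) and MGLL, a lipase of monoglycerides, at 6.41 against 40.9 FPKM (2.67). The acyltransferase DGAT1 had 14.2 against 17.8 FPKM (0.33).

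Of 10 tight junction genes, 7 were lower and 5 at least 4-fold (median -1.63). The claudins CLDN3 and CLDN7 had 27.1 against 4.79 and 14.9 against 3.18 FPKM (-2.50 and -2.23), while F11R, a junction molecule that white cells also carry, had 4.78 against 15.6 FPKM (1.70). In prolactin and growth hormone signalling, 5 of 8 genes were higher (median 0.56). STAT5A had 78.5 against 112 FPKM (0.52), STAT5B 27.6 against 13.99 FPKM (-0.98), and JAK2, which many cytokine receptors use, 3.38 against 19.0 FPKM (2.49). Of 9 genes of calcium and zinc secretion, 4 were higher and 5 lower (median -0.35), with 3 at least 4-fold lower, ATP2C2, a calcium pump of the secretory pathway (16.6 against 0.796 FPKM, -4.39), and the transporters SLC30A2 (-5.16) and SLC34A2 (-4.82), these last 2 at under 10 FPKM. The pump ATP2B1 was higher (8.35 against 36.1 FPKM, 2.11). Of 5 antimicrobial and acute phase genes compared, those that the gland epithelium secretes were lower in Jersey cattle, LPO (lactoperoxidase) with 64.4 against 1.61 FPKM (-5.32) and PIGR, the carrier of IgA into milk, with 43.9 against 4.76 FPKM (-3.21). LYZ (lysozyme, 86.5 against 271 FPKM, 1.65) and PTX3 (pentraxin 3, 3.92 against 244 FPKM, 5.96), made by phagocytes, were higher. With MUC15 (-4.10) the list median was -3.21.

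Among the lists of general functions, cytosolic ribosomal proteins had the lowest median. Of 45 genes compared, 44 were lower in Jersey cattle and 23 at least 4-fold, with a median of -2.01. Their FPKM made up 24.7% of the sum of all entries in Kashmiri and 7.54% in Jersey cattle. These sums lack genes listed at 0, such as CSN1S1, CSN2, CSN3 and PAEP in Kashmiri and FTH1 and SPP1 in Jersey cattle. The percentages are therefore not shares of all RNA, and their comparison between breeds is uncertain. RPLP1 had 15713 against 3007 FPKM (-2.39) and RPS27 8037 against 1568 FPKM (-2.36). The members nearest to 0 were RPL7L1 (0.27) and RPL26L1 (-0.084), which are paralogs and not core subunits. Some translation factors were also lower, EEF1G with 1855 against 563 FPKM (-1.72), EEF1B2 with 613 against 188 FPKM (-1.71) and EIF3E with 393 against 102 FPKM (-1.94), but the 50 factors together had a median of -0.25, with 17 higher and 33 lower. The T and NK cell and epithelial markers were lower in the same samples and the neutrophil markers higher, and their part in the ribosomal ratio was not tested.

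Some other core functions were close to the median of all genes. Mitochondrial ribosomal proteins (69 genes) had a median of -0.26, with 19 higher, 50 lower and none 4-fold. The nuclear genes of respiratory complex I (28 genes) had a median of -0.17 and those of complexes III to V (24 genes) one of -0.12. The proteasome (32 genes) had a median of 0.038, with PSMA3 alone 4-fold higher (12.4 against 64.0 FPKM, 2.37), and cytosolic heat shock genes (10) one of -0.065. All these medians and that of the translation factors, apart from the proteasome, turned positive when FPKM was rescaled to the sum, and that of the proteasome turned negative under upper quartile scaling.

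Most glycolysis and all hypoxia response genes compared were higher in Jersey cattle. Of 18 glycolysis genes, 16 were higher and 8 at least 4-fold, with a median of 1.95. LDHA (lactate dehydrogenase) had 134 against 976 FPKM (2.86), PGK1 135 against 754 FPKM (2.49), ALDOA 589 against 2596 FPKM (2.14), and the lactate exporter SLC16A3 14.2 against 194 FPKM (3.77). The isoform PFKP was lower (34.7 against 16.5 FPKM, -1.07). All 12 hypoxia response genes were higher and 8 at least 4-fold (median 2.50), with HIF1A, the oxygen-regulated factor, at 18.6 against 159 FPKM (3.09) and VEGFA, a growth factor for vessels, at 7.25 against 331 FPKM (5.51). Of 14 lysosome and cathepsin entries, 13 were higher and 6 at least 4-fold (median 1.79), among them CTSB (909 against 4479 FPKM, 2.30) and CTSH (180.3 against 1271 FPKM, 2.82). This list leaves out CTSW, the cathepsin of cytotoxic lymphocytes given above (-6.13). Of 13 matrix and protease genes, 12 were higher and 9 at least 4-fold (median 3.39). PLAU (urokinase) had 20.2 against 807 FPKM (5.32) and its receptor PLAUR 118 against 1237 FPKM (3.39). TIMP3, an inhibitor of matrix proteases, was the lower member (46.8 against 2.88 FPKM, -4.02).

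Cholesterol synthesis and cell division leaned to Kashmiri cattle. Of 21 cholesterol genes, 17 were lower and none 4-fold (median -0.63), and 13 were lower when FPKM was rescaled to the sum. DHCR7, the enzyme of the last step, had 41.8 against 18.9 FPKM (-1.14), and SREBF2, the factor that induces the pathway, 111 against 53.5 FPKM (-1.05). Of 19 cell cycle genes, 18 were lower and 1 at least 4-fold (median -0.93). That gene was MCM3, a subunit of the replicative helicase (16.5 against 3.24 FPKM, -2.35), and PCNA, the sliding clamp, had 44.0 against 26.4 FPKM (-0.74). PLK1, in a joined entry, was the member higher in Jersey cattle (0.57).

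**Figure D3:**
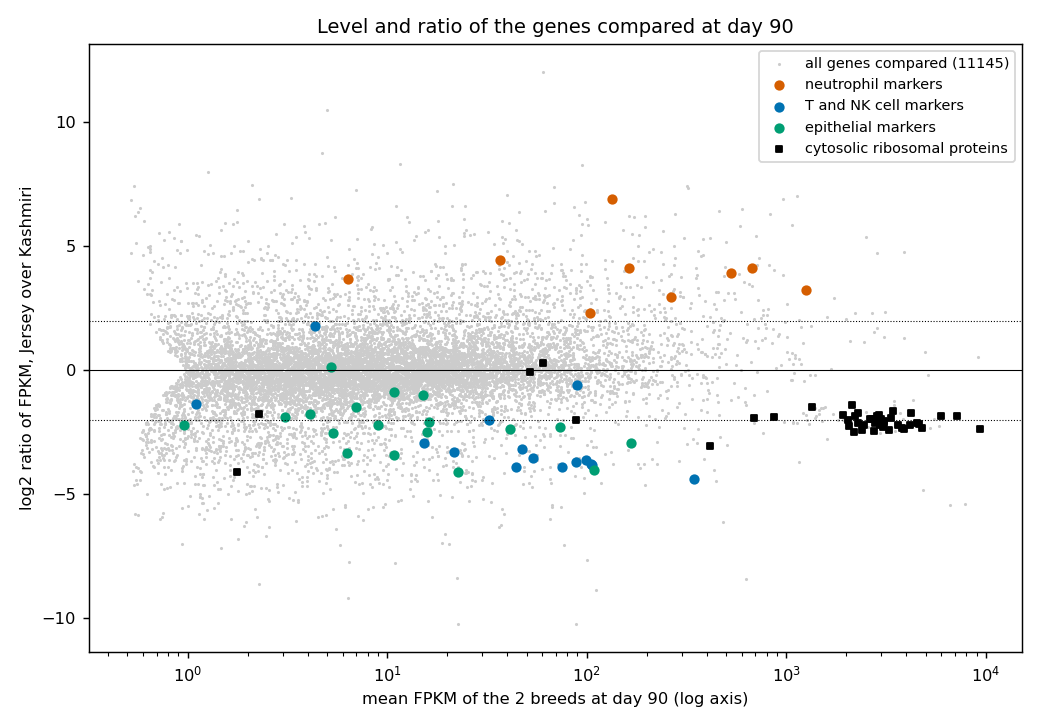
Log2 ratio (Jersey over Kashmiri) against the mean FPKM of both breeds (log axis) for the 11145 genes compared at D90 in grey, with neutrophil, T and NK cell and epithelial markers and cytosolic ribosomal proteins in colour and dotted lines at 4-fold. Most ribosomal genes lie in a tight group at high FPKM near a ratio of -2.01, while the 3 marker lists spread over a wide range of FPKM above and below 0.

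To separate the ratios that a change of cell mixture alone could give, the range between the marker lists was used. Where 2 cell populations of fixed profile are mixed in different shares, the ratio of each gene lies between the ratios of the genes found only in one population and only in the other. With the median of the epithelial markers (-2.27) and of the neutrophil markers (3.92) as bounds, 9937 of 11145 genes (89.2%) lay within, 934 below and 274 above. The lower bound became -3.56 when the T and NK cell markers, whose median was lower, replaced the epithelial ones, an alternative chosen after seeing the data. Then 10506 genes (94.3%) lay within, 365 below and 274 above. With the lowest epithelial marker (-4.12) and the highest neutrophil marker (6.92), 10916 genes (97.9%) lay within. A ratio inside the range does not show that mixture caused it, and a ratio outside does not show regulation, since the marker lists themselves spread over several log2 units.

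The genes with at least 10 FPKM in the higher breed, at least 1 FPKM in the lower and a single gene symbol numbered 4446. With the T and NK cell and neutrophil bounds, 101 of them were above and 69 below the range. By list, 46 of 186 white cell genes were above and 24 below, but these include the markers that set the bounds and the lists written after the values had been seen, so that their choice fixed most of this count. Without them, 18 of 100 white cell genes were above and 1, LPO, below, a count added after seeing the data. This class was drawn by list and not by cell of origin. It held LPO and PIGR, which the gland epithelium secretes, through the antimicrobial list, and the endothelial marker VWF. Of the other classes, 7 of 55 milk secretion genes were below and none above, and 6 of 359 genes of general functions were above and 1 below. Of the 3846 genes in no list, 49 were above and 37 below. The 7 milk secretion genes were LALBA, whose estimate is uncertain, ABCG2, MUC1, ELF5, FASN, MFGE8 and FABP3, of which MUC1 and ELF5 are also epithelial markers. Among the 6 general genes above were THBS1 (3.39 against 53.1 FPKM), ANKRD37 (4.09 against 77.5 FPKM), PLAU, NFKBIA and VEGFA, and TIMP3 was the one below.

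The 12 genes with the highest ratios among these were led by GPR84, MCEMP1 and IL1B. With them came OCSTAMP, a membrane protein of osteoclast fusion (1.75 against 194 FPKM, 6.80), IL1A, NOS2, MEFV, DEFB7, a beta-defensin (1.08 against 90.6 FPKM, 6.39), G0S2, an inhibitor of fat breakdown (20.7 against 1632 FPKM, 6.30), NAIP and ACOD1. These 11 of the 12 were below 21 FPKM in Kashmiri cattle. The 12 with the lowest ratios held 5 genes of T cells (among them CTSW, TCF7, TRDC and SH2D2A), a further receptor segment (TRGV11, 58.6 against 1.59 FPKM, -5.20) and 2 genes of milk components (LALBA, with the doubt given above, and LPO, which is counted in the antimicrobial list). The other 4 were SPRY2, an inhibitor of growth factor signalling (74.1 against 1.54 FPKM, -5.59), the retinoic acid receptor RARB (41.2 against 1.19 FPKM, -5.11), BICDL1, an adaptor of the dynein motor (48.2 against 1.83 FPKM, -4.72), and OBFC1, a telomere protein (226 against 9.68 FPKM, -4.55). The ratio of all 24 had the same sign at D15 and D250, except that LALBA was listed at 0 in both breeds at D15. For IL1B it was 3.90 at D15 and 7.33 at D250, for CTSW -2.87 and -3.89, for SPRY2 -3.48 and -3.40, and for LALBA -1.34 at D250.

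**Figure D4:**
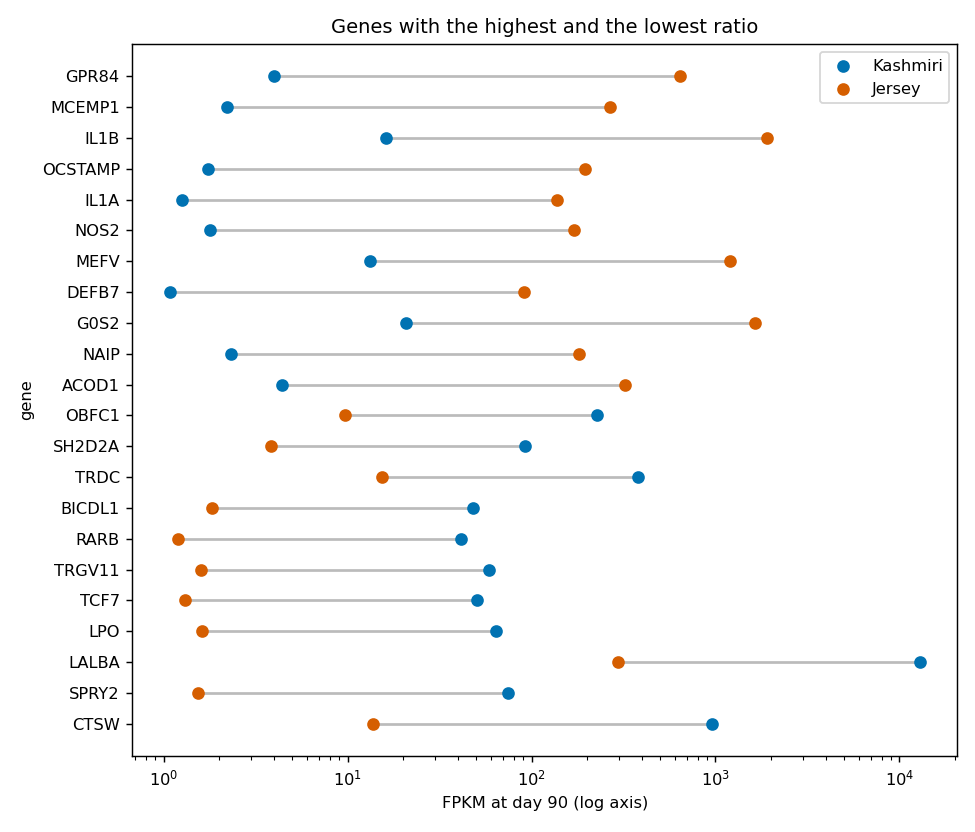
FPKM at D90 (log axis) of 11 of the 12 genes with the highest and 11 of the 12 with the lowest ratio, with Kashmiri in blue and Jersey in orange. The genes higher in Jersey cattle start from below 21 FPKM in Kashmiri cattle, and CTSW has 954 against 13.7 FPKM. The LALBA entry (12933 against 297 FPKM) was listed at 0 in both breeds at D15, and its values are uncertain.

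Further genes beyond the range were named after their values were seen. SDS (serine dehydratase) had 209 against 5469 FPKM (4.71), the early response genes IER3 and DUSP6 had 29.5 against 715 and 22.9 against 534 FPKM, and TCN1, a vitamin B12 carrier of neutrophil granules, 2.88 against 198 FPKM (6.10). The entry of the hairpin bta-mir-223, a microRNA of myeloid cells, had 1.31 against 63.1 FPKM (5.59), although hairpins this short are poorly measured in poly(A) libraries. CD55, which guards cells from complement, had 3.53 against 99.0 FPKM (4.81), and AREG, a growth factor of the EGF family, 2.04 against 36.1 FPKM (4.15). On the Kashmiri side, AZGP1, GP2 and TFF3, secretory proteins of epithelia, had 48.1 against 2.79, 25.9 against 1.98 and 141 against 9.29 FPKM (-4.11, -3.71 and -3.93).

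The same ratio was taken on the other days from the groups of D15 and D250, which the labels give as separate samples. At D15, 1132 of 11163 genes (10.1%) were at least 4-fold higher in Jersey cattle and 554 (4.96%) lower, and at D250 1607 of 11589 (13.9%) were higher and 504 (4.35%) lower. Of the 1062 genes higher at D90, 584 were also among those at D15 (54.99% of the D90 genes and 51.6% of the D15 genes), and 754 among those at D250 (71.0% and 46.9%). Of the 1123 lower genes, 246 were shared with D15 (21.9% and 44.4%) and 267 with D250 (23.8% and 53.0%). The study's methods describe the same cows on each day, so these shares are not independent observations.

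The neutrophil markers had median ratios of 4.53, 3.92 and 4.82 in the order of the days, with 9 of 10, 9 of 9 and 10 of 10 markers higher in Jersey cattle. The macrophage and monocyte markers had 3.97, 2.07 and 0.94, with 12 of 12 higher at D15 and D90 and 7 of 12 at D250. The T and NK cell markers had -0.25, -3.56 and -1.85, and the B and plasma cell markers 1.25, -2.01 and -1.71, with the lowest value at D90 for both. The epithelial markers were also lowest at D90 (-0.85, -2.27 and -1.51), as were the cytosolic ribosomal proteins (-1.08, -2.01 and -0.74). The T and NK cell markers of Kashmiri cattle summed to 562, 2041 and 485 FPKM, and those of Jersey cattle to 391, 219 and 184. The Kashmiri sum was highest at D90. The epithelial sum was lowest at D90 in each breed, with 7111, 908 and 3066 FPKM in Kashmiri and 3114, 140.4 and 1637 FPKM in Jersey cattle. Glycolysis (2.00, 1.95 and 1.67) and fatty acid genes (-1.90, -1.49 and -1.14) kept their direction on the 3 days. Whether a ratio differed between days was not tested.

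**Figure D5:**
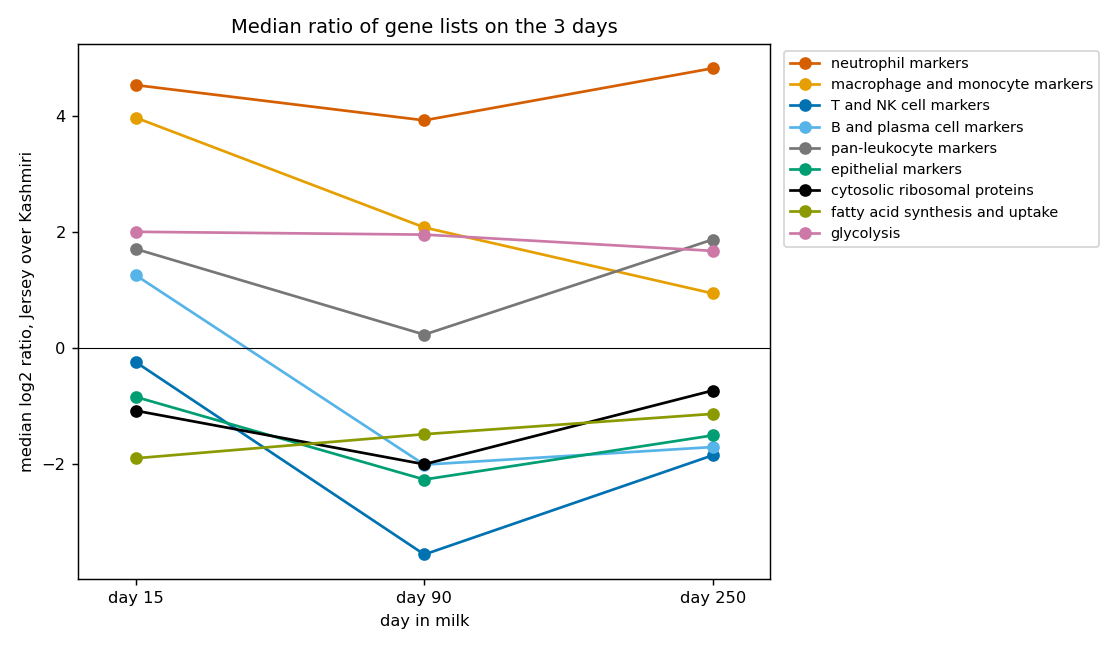
Median log2 ratio (Jersey over Kashmiri) of 9 gene lists at D15, D90 and D250, with lines that only join the points of a list. The T and NK cell, B and plasma cell, epithelial and ribosomal medians are lowest at D90, and the neutrophil and glycolysis medians lie above 0 on each day.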

How the data were processed

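RNA of milk cells captured with a KRT18 antibody was sequenced from poly(A) libraries. Per the labels, Bowtie2 and the bovine assembly UMD3.1 were used, and the study's methods add Trimmomatic, TopHat, Cufflinks and Cuffdiff. The deposited values are the authors' FPKM, scaled per transcript length and mapped reads, with 1 pooled value per breed and day in 6 columns. All value columns were used. The column name Local was read as Kashmiri, the only other breed in the labels. The pooling hides the spread of the samples, and FPKM is relative, so that a very abundant gene lowers all others.

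The table held 61264 entries, of which 25121 were named. Where a name recurred, its entry of highest mean over the 6 values was kept. Of the 11145 genes compared, 9138 carried a single symbol, 1407 an Ensembl identifier and 600 joined names, and list members were looked up in joined names too, each entry counted once per list. The plain log2 ratio without a pseudocount and a limit of 4-fold were used, with no test. Genes were named by rule: the largest, smallest and middle members of a list among those at or above 10 FPKM in a breed, the study's milk trait and top genes, and the 12 highest and 12 lowest ratios with at least 10 FPKM in the higher and 1 FPKM in the lower breed. Some genes are not reported here. Others are marked, or lie under 10 FPKM, and were named after their values were seen. The comparison and lists were chosen with earlier results of these data known, and the spellings IL-8, BOLA-A and BoLA DR-ALPHA were added once the names were seen. The code was tested on simulated data with known changes. Alternatives were a pseudocount, other filters, 2-fold, 3 rescalings, summed entries, symbols only and other bounds of the range. The software was Python 3.11.15 with pandas 2.3.3, numpy 2.4.6 and, for the plots, matplotlib 3.10.9.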

Additional observations from a re-analysis of the deposited data

How the results depend on the processing

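No paired analysis was possible because each breed and day had 1 pooled value, and for the same reason no sample could be left out. The 1062 higher and 1123 lower genes became 738 and 579 with a pseudocount of 1 FPKM, 700 and 468 with at least 1 FPKM in both breeds, 691 and 472 with at least 10 FPKM in either, 1456 and 1830 without a filter, and 2244 and 2340 at 2-fold. The 1208 genes beyond the range of epithelial and neutrophil medians became 754 with the pseudocount, 468 with 1 FPKM in both, 527 with 10 FPKM in either and 1987 without a filter. They became 229 with the lowest epithelial and highest neutrophil marker, and 639 with the T and NK cell bound. The share of higher among 4-fold genes moved from 48.6% to 59.9% and 59.4% with the filters of 1 FPKM in both and 10 FPKM in either. The medians of the neutrophil, epithelial and ribosomal lists and of all genes kept within 0.58 under each alternative run. The rescalings could not pass this limit, since each adds the same constant, smaller than 0.58, to every ratio. The CXC chemokine median turned from -1.63 to 0.70 with 1 FPKM in both, 10 FPKM in either, symbols only or joined entries left out, and to 0.53 without a filter, since these choices add or remove entries of this short list. Of the 284 list members past 4-fold, 254 stayed past it with the pseudocount, 271 under upper quartile scaling and 257 when rescaled to the sum. None could change direction under these choices, since both rescalings shift the log2 ratio by less than the 4-fold limit. A pseudocount keeps the sign of a ratio. Genes of low FPKM carry the least reliable ratios, and no depth per value was known.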

Other observations

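Smaller groups of cells and functions, which belong to no comparison above, gave the following values at D90, as FPKM in Kashmiri against Jersey cattle and the log2 ratio of Jersey over Kashmiri. Red cell markers were below the limit of 1 FPKM in both breeds, so none was compared. Of the platelet markers, 2 were compared, PPBP, a chemokine of platelets and monocytes (0.842 against 12.5 FPKM, 3.89), and ITGA2B in a joined entry (0.18). Of the endothelial and fibroblast markers, VWF had 2.77 against 16.0 FPKM (2.52) and PECAM1 0.746 against 2.80 FPKM (1.91). The 4 basal and myoepithelial markers compared were split, with 2 higher and 2 lower (median -0.038), and none reached 10 FPKM.

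Of 11 clock genes, 4 were higher and 7 lower in Jersey cattle (median -0.49; 5 and 6 when rescaled to the sum), and 3 were at least 4-fold lower. PER1 had 41.9 against 4.44 FPKM (-3.24) and ARNTL (BMAL1), its activator, 12.9 against 2.67 FPKM (-2.27), while the repressor NFIL3 had 77.7 against 240.1 FPKM (1.63). The hour of milking of each sample was not used here. Of 12 BCL2 family genes, 9 were higher (median 0.94). BCL2A1, a survival gene that NF-kB induces in myeloid cells, had 74.0 against 1089 FPKM (3.88), and BCL2, the survival gene of lymphocytes, 11.95 against 3.54 FPKM (-1.76). Among 9 genes of eicosanoid synthesis, 6 were higher (median 0.48), with PTGS2 (cyclooxygenase 2) at 0.640 against 27.3 FPKM (5.41) and ALOX5AP, which leukotriene synthesis needs, at 10.7 against 52.6 FPKM (2.30).

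All 8 iron handling genes compared were higher in Jersey cattle (median 1.62), from SLC40A1 (ferroportin, 0.56) to the metalloreductase STEAP4 (0.814 against 137 FPKM, 7.39). FTH1 was listed at 0 in Jersey cattle, which can be a failed estimate. Of 18 genes of endoplasmic reticulum chaperones and stress, 15 were higher and none 4-fold (median 0.94), while XBP1, the factor of secretory and plasma cells, was lower (321 against 178 FPKM, -0.85). Of 17 actin genes, 16 were higher (median 0.73), with VASP (71.9 against 414 FPKM, 2.52) at least 4-fold. TMSB4X, the other 4-fold member, was listed at 0.0526 against 6.51 FPKM, and as an abundant gene of most cells it may be a failed estimate. Of 11 amino acid transporters, 7 were higher and 4 lower (median 0.17), with SLC1A5 at 48.3 against 134 FPKM (1.47) and SLC7A4 at 15.4 against 0.822 FPKM (-4.23), and the median fell below 0 under upper quartile scaling.

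Genes with at least 1 FPKM in a breed and 0 in the other numbered 29 with 0 in Kashmiri and 35 with 0 in Jersey cattle. Among those with symbols were FTH1 (4004 FPKM), SPP1 (osteopontin, 4072 FPKM) and IL1RN, the antagonist of IL1 (88.1 FPKM), in Kashmiri cattle, each listed at 0 in Jersey cattle. Such a 0 can be a failed estimate, as for GAPDH, so no level or direction was read from these entries.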
